A study of Arabidopsis thaliana with 26 samples.

Results

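6-Deoxotyphasterol is an intermediate of the late 6-deoxo route to castasterone and brassinolide, the active steroid hormones of plants known as brassinosteroids. Its effect was read as the difference between the 2 arrays of seedlings given 1 µM 6-deoxotyphasterol for 3 h and the 2 arrays of mock-treated seedlings, out of 26 arrays in 13 groups. All seedlings were 7 days old and were described in the labels as de-etiolated, with Col as genetic background and N6159 as stock code, and RNA was taken from the whole plant. The labels do not spell out the genotype or any allele of this stock, which limits it as a model, because the response to a precursor depends on the enzymes a plant has. For comparison, typhasterol, 6-deoxocastasterone and 3-dehydro-6-deoxoteasterone were given at 1 µM and campestanol at 10 µM, each for 3 h on 2 arrays. The labels also do not say whether the arrays lettered A and B of a group come from separate cultures, so the p-values below measure only the spread between arrays, which may be technical.

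Brassinosteroids are perceived at the cell surface by the receptor kinase BRI1 and act through the transcription factors BZR1 and BES1. In seedlings they are known for promoting cell elongation, partly through genes for wall-modifying proteins such as expansins and xyloglucan endotransglucosylase/hydrolases (XTHs). In the 6-deoxo route, 3-dehydro-6-deoxoteasterone is reduced at C-3 to 6-deoxotyphasterol, which is hydroxylated at C-2 to 6-deoxocastasterone, and typhasterol is the counterpart of 6-deoxotyphasterol that carries a ketone at C-6. The comparisons ask which genes respond to 6-deoxotyphasterol and how far its response differs from that to compounds that differ from it by a single such change.

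Expression was measured on ATH1 arrays, which read each transcript through a probe set of short oligonucleotides. Values are intensities on the authors' linear MAS5 scale, in which every array had been scaled to nearly the same trimmed mean. Log2 changes are differences of log2(intensity + 5), which understates changes of dim probe sets, and are given ± SE. They come from a limma fit to all arrays with the letter as a block, and a probe set is called higher or lower at a Benjamini-Hochberg adjusted p under 0.05 over the 17606 probe sets tested. Array medians lay between 33.9 and 41.0 and the 2 arrays of a group correlated at 0.948 to 0.975 across probe sets. No array stood apart, and the 6-deoxotyphasterol pair had the highest of these correlations, 0.975, against 0.967 for the mock pair. Only 9861 of the probe sets tested name exactly 1 gene in the tables used here, so well-known genes outside that set are not analysed here. Levels on these arrays can be compared between groups for 1 probe set, but not between genes. In whole seedlings, a change in the number of cells of a type and a change of RNA per cell cannot be told apart.

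Against mock, 6-deoxotyphasterol raised EXO, EXPA8, the expansin-like genes EXLA1 and EXLA2, and XTH33, all from families linked to the cell wall. EXLA1 passed only narrowly. AT5G01740 and AT5G57785 were lowered the most among named genes. Of the probe sets tested, 83 were called higher and 22 lower, 105 in all (0.471%, 0.125% and 0.596% of those tested), and 53 of the rises and 18 of the falls were at least 2-fold. The rises had log2 changes between 0.64 and 3.29 with a median of 1.12, and the falls between -0.71 and -2.68 with a median of -1.36, while the median over all probe sets tested was -0.01. The 6-deoxotyphasterol arrays lay apart from the mock arrays for all 105, as they did for 30.9% of all probe sets tested. The count rests on the block for the letter: without it 34 probe sets were called. It also rests on the number of arrays, since 27 to 60 were called when any 1 of the 4 arrays was left out, with 29 without 6-deoxotyphasterol array A, 27 without its array B, 60 without mock array A and 40 without mock array B. Only 42 of the 105 name 1 gene, 34 of them higher and 8 lower.

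EXO (EXORDIUM), a brassinosteroid-responsive gene of cell expansion, read 835 and 643 after 6-deoxotyphasterol, against 206 and 135 in mock. Both treated arrays were far above both mock arrays, and the log2 change was 2.105 ± 0.219 (adjusted p = 1.92e-05). EXO was the only tested member of the EXORDIUM family.

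**Figure D1:**
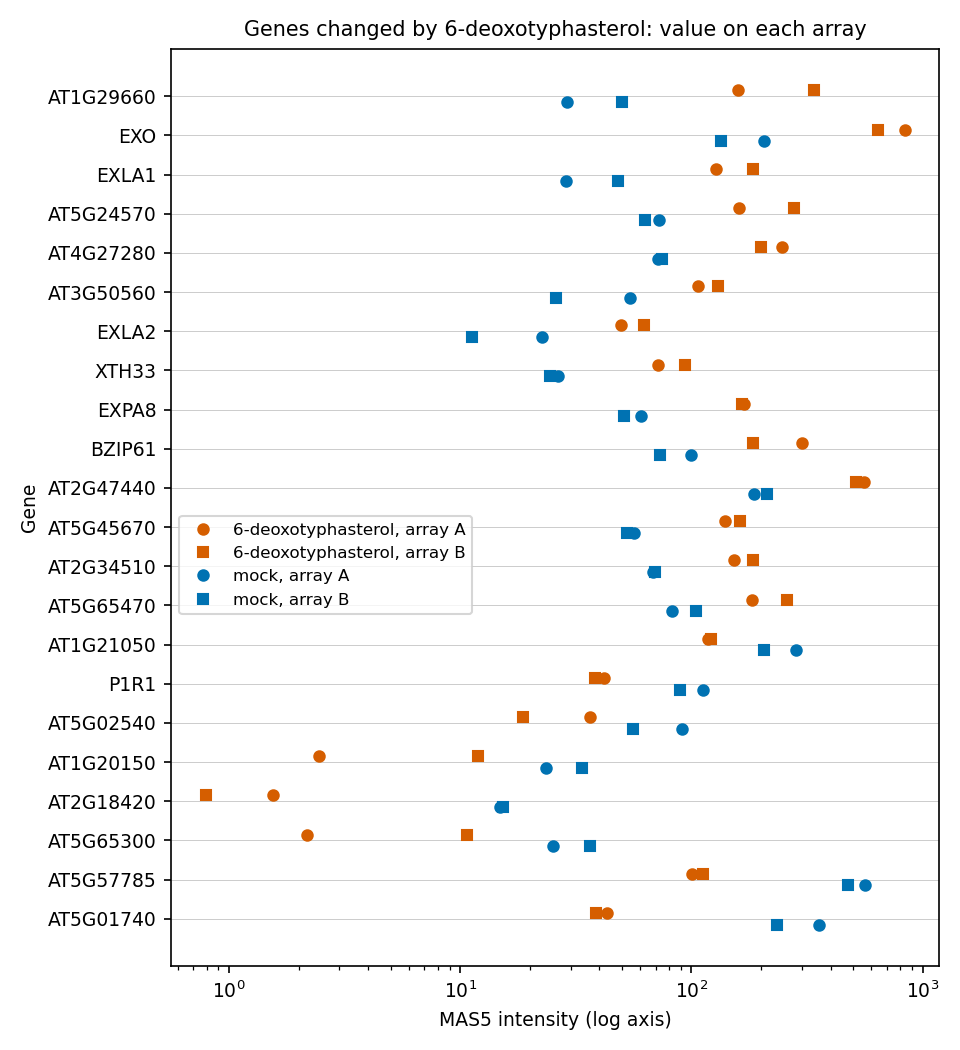
Intensity on a log axis of the 22 genes named for 6-deoxotyphasterol (orange, upper) against mock (blue, lower), with a circle for array A and a square for array B. The treated and mock points do not overlap for any gene, as with EXO at 835 and 643 against 206 and 135. The genes were chosen among the called ones, all of which lay apart, as did 30.9% of all probe sets tested.

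Expansins loosen the wall without cutting its polymers. The list used here also holds expansin-like genes, and 3 of its 15 members tested, out of 37 listed, rose while none fell. Over all probe sets, 0.471% rose and 0.125% fell. EXPA8, an alpha-expansin, read 168 and 165 after 6-deoxotyphasterol and 60.4 and 51.0 in mock, a log2 change of 1.50 ± 0.20 (adjusted p = 2.74e-04). The expansin-like gene EXLA2 read 49.5 and 62.4 in treated seedlings and 22.6 and 11.2 in mock, a change of 1.52 ± 0.28 (adjusted p = 0.00736). For both genes the treated arrays were all above the mock arrays, and EXPA8 was the tighter of the pair. EXLA1 read 128 and 184 in treated seedlings against 28.8 and 48.0 in mock, a change of 1.91 ± 0.43, and passed narrowly (adjusted p = 0.0432). Its call was lost without the letter block, without the intensity trend of the fit, with no filter on low values, at a pseudocount of 20, under quantile normalization and when any 1 of the 4 arrays was left out. The call of EXLA2 was lost without either treated array or mock array B. The other 12 expansins did not pass. The list had a median log2 change of 0.15, against -0.01 over all probe sets tested, with 11 of 15 members above 0. EXLA3, the third member of its subfamily measured, read only 9.64 and 16.9 in treated seedlings and 8.50 and 4.94 in mock, a change of 0.63 ± 0.34 that did not pass (adjusted p = 0.804).

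XTHs cut and rejoin xyloglucan, the polymer that tethers cellulose microfibrils, and 1 of the 8 members tested, out of 33 listed, rose and none fell. Of all probe sets tested, 0.471% were called higher and 0.125% lower. XTH33 read 71.6 and 93.5 after 6-deoxotyphasterol and 26.6 and 24.5 in mock, a log2 change of 1.51 ± 0.27 (adjusted p = 0.00736). Its call was lost without the letter block, without either treated array and without mock array B. The median over the 8 XTHs was 0.62, and 7 of the 8 were above 0, where the median over all probe sets tested was -0.01. XTH18 read 110 and 172 in treated seedlings against 53.8 and 75.6 in mock, a change of 1.05 ± 0.30 that did not pass (adjusted p = 0.163). XTH16 read 267 and 234 against 148 and 126 in mock, a change of 0.85 ± 0.21 (adjusted p = 0.0812). XTH19 read 141 and 209 against 71.2 and 116 in mock, a change of 0.88 ± 0.26 (adjusted p = 0.187). In these 3 genes the treated arrays lay above the mock arrays without the change passing the test. Treated and mock arrays lay apart, in either direction, for 30.9% of all probe sets tested. XTH32, XTH26 and XTH20 had changes of -0.15, 0.13 and 0.18, and EXGT-A3, another member of the family, had 0.39.

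Among genes for the cellulose synthase superfamily, 1 of the 8 tested, out of 42 listed, rose and none fell, where 0.471% of all probe sets rose and 0.125% fell. CSLC04, a glucan synthase that makes the xyloglucan backbone, read 428 and 447 after 6-deoxotyphasterol and 212 and 233 in mock, a log2 change of 0.96 ± 0.15 (adjusted p = 0.00200). The treated arrays were close to each other and well above both mock arrays, yet the call was lost without the letter block, without treated array A and without mock array B. The list had a median of 0.29, against -0.01 over all probe sets tested, with 7 of 8 above 0. CSLA03 read 96.1 and 94.2 in treated seedlings and 57.8 and 50.4 in mock, a change of 0.76 ± 0.22 that did not pass (adjusted p = 0.181).

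None of the 4 pectin methylesterases and their inhibitors tested passed, with a median log2 change of 0.06. ATPMEPCRB read 162 and 183 after 6-deoxotyphasterol and 66.4 and 88.4 in mock, a change of 1.12 ± 0.30 (adjusted p = 0.112). Of 10 Aux/IAA and GH3 genes, which belong to the auxin response, GH3.3 rose and none fell, and the median was 0.05. The shares over all probe sets tested were 0.471% for rises and 0.125% for falls. GH3.3, whose product conjugates auxin to amino acids, read 133 and 103 in treated seedlings and 77.5 and 38.6 in mock, a change of 1.02 ± 0.21 (adjusted p = 0.0187). Array A of each group was the higher for GH3.3, and the call was lost without the block, without the intensity trend and when any 1 of the 4 arrays was left out.

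The remaining gene lists gave no calls in this limma fit, in which 1221 of all probe sets had an unadjusted p under 0.05. They were the 3 gibberellin receptor genes GID1A, GID1B and GID1C (median log2 change 0.00), 6 touch and calcium genes (median -0.01) and 5 cyclins and histones (median -0.09). In the touch and calcium list, the calmodulin-like gene CML42 read 182 and 213 in treated seedlings and 137 and 132 in mock, a change of 0.53 ± 0.14 (adjusted p = 0.0986). BAT1, an acyltransferase that inactivates brassinosteroids, read 106 and 96.4 against 93.0 and 62.6 in mock, a change of 0.38 ± 0.22 (adjusted p = 0.829), and was the only gene of brassinosteroid inactivation tested. No gene of the lists for brassinosteroid biosynthesis, brassinosteroid signalling, SAURs, arabinogalactan proteins or aquaporins could be tested through a named probe set.

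**Figure D2:**
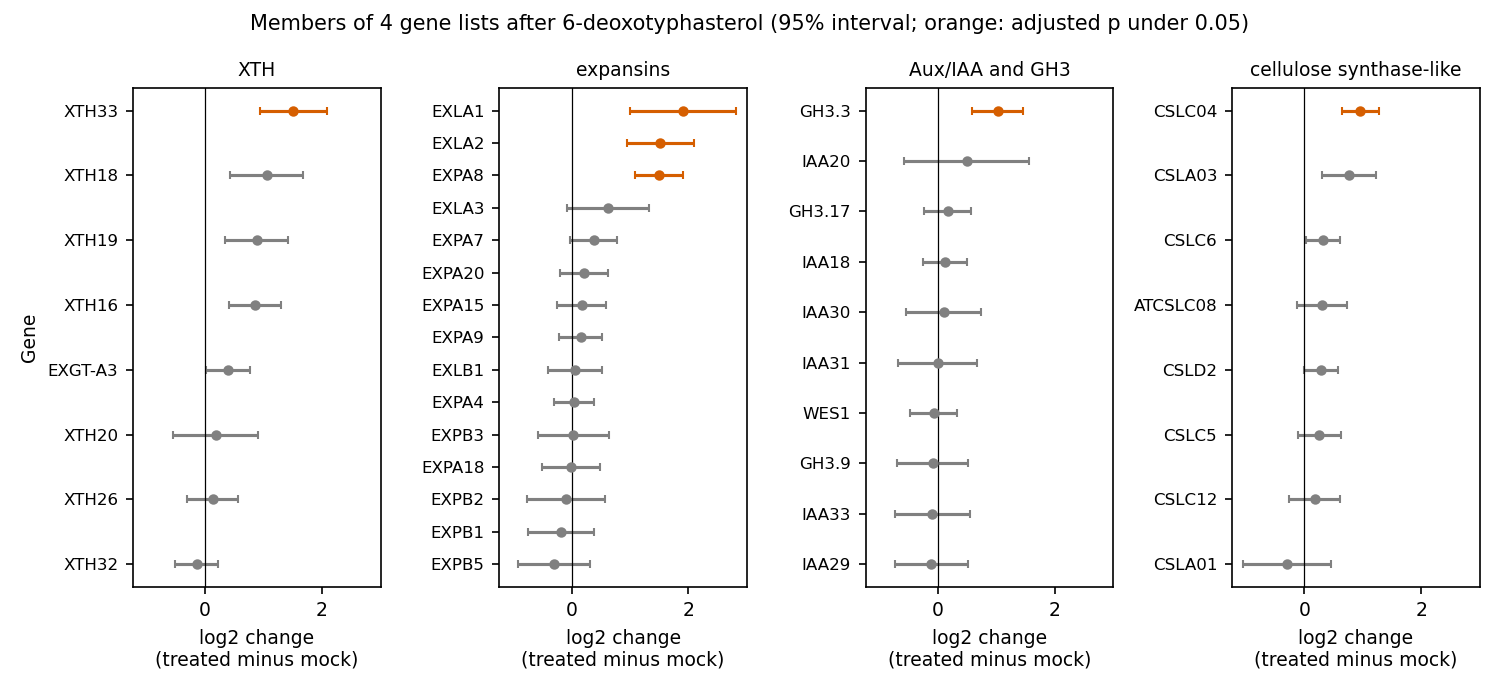
Log2 change in 6-deoxotyphasterol over mock of each tested gene of 4 lists, with its 95% interval, in orange where the adjusted p is under 0.05. The orange members are XTH33 at 1.51, EXLA1, EXLA2 and EXPA8 at 1.91, 1.52 and 1.50, GH3.3 at 1.02 and CSLC04 at 0.96.

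The other genes among the largest named rises were mostly loci without a symbol. AT1G29660 had the largest change of a named gene, with 159 and 339 after 6-deoxotyphasterol and 28.9 and 49.9 in mock (log2 change 2.46 ± 0.31, adjusted p = 1.81e-04). Array B was the higher in both groups, and the groups stayed apart. BZIP61, a bZIP transcription factor, read 302 and 184 in treated seedlings and 99.6 and 73.5 in mock, a change of 1.41 ± 0.20 (adjusted p = 8.28e-04). AT2G47440 was tight in both groups, with 556 and 515 against 187 and 212 in mock (1.41 ± 0.18, adjusted p = 1.96e-04). AT4G27280 read 247 and 201 against 71.5 and 74.6 in mock, a change of 1.55 ± 0.22 (adjusted p = 7.57e-04). These 4 genes kept their calls when any 1 of the 4 arrays was left out, and the last 2 also without the block.

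AT5G24570, AT3G50560, AT5G45670, AT2G34510 and AT5G65470 completed the 14, with log2 changes of 1.58, 1.53, 1.38, 1.22 and 1.19, and each lost its call without the block, AT3G50560 and AT2G34510 also without the intensity trend. AT2G34510 and AT5G65470 also lost it when any 1 of the 4 arrays was left out, AT3G50560 and AT5G45670 without either treated array or mock array B, and AT5G24570 without treated array B or mock array B. The further 20 named rises had changes between 0.68 and 1.18. Among them, and chosen after their values were seen, THE1 (THESEUS1), a receptor kinase that monitors the cell wall, read 188 and 185 in treated seedlings and 112 and 84.5 in mock (0.90 ± 0.16, adjusted p = 0.00736). RALFL33, a gene for a secreted signalling peptide of the RALF family, was chosen in the same way and read 313 and 287 against 172 and 159 in mock (0.84 ± 0.15, adjusted p = 0.00736). The call of RALFL33 was lost when any 1 of the 4 arrays was left out, that of THE1 without either treated array or mock array B, and both without the block.

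**Figure D3:**
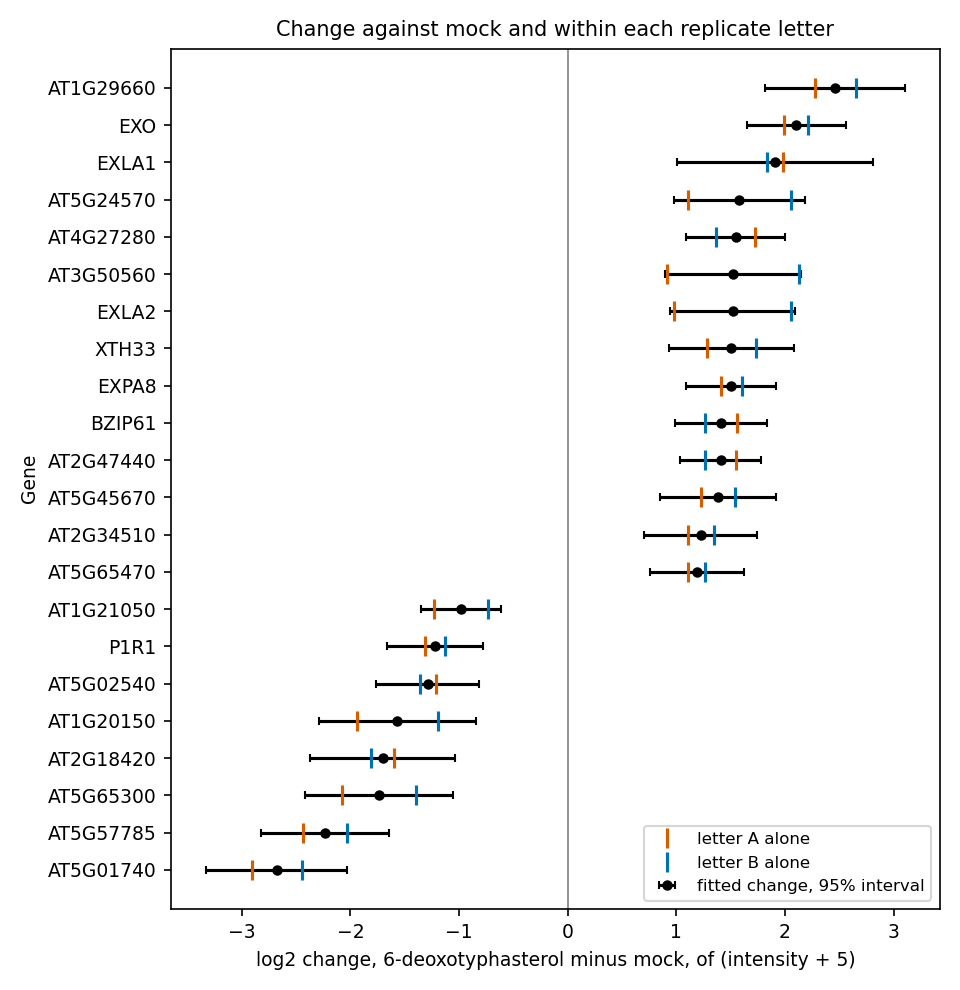
Log2 change of the 22 genes named for 6-deoxotyphasterol over mock, as a black point with the 95% interval of the limma fit and coloured ticks for the change within letter A (orange) and within letter B (blue) alone. The fitted rises run from 1.19 for AT5G65470 to 2.46 for AT1G29660 and the falls from -0.98 for AT1G21050 to -2.68 for AT5G01740.

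All 8 called falls that name a gene are given here. AT5G01740 fell most, with 43.0 and 38.7 after 6-deoxotyphasterol and 356 and 233 in mock, a log2 change of -2.68 ± 0.31 (adjusted p = 7.72e-05). AT5G57785 read 100 and 112 in treated seedlings against 564 and 475 in mock, a change of -2.23 ± 0.28 (adjusted p = 1.96e-04). In both genes the treated arrays lie close together and far below mock, and both calls held when any 1 of the 4 arrays was left out and without the block. P1R1, whose locus name AT5G57780 is close in number to AT5G57785, read 41.9 and 38.1 against 112 and 89.5 in mock (-1.22 ± 0.21, adjusted p = 0.00545). AT5G02540 read 36.3 and 18.6 against 90.8 and 55.7 in mock (-1.29 ± 0.23, adjusted p = 0.00612), and AT1G21050 118 and 122 against 284 and 207 (-0.98 ± 0.18, adjusted p = 0.00736). P1R1 lost its call when any 1 of the 4 arrays was left out, AT1G21050 without either treated array or mock array A, and AT5G02540 without treated array B or mock array A. Without the block P1R1 kept its call and the other two lost theirs.

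The last 3 named falls were dim. AT5G65300 read 2.18 and 10.7 after 6-deoxotyphasterol and 25.3 and 36.3 in mock, a log2 change of -1.74 ± 0.33 (adjusted p = 0.00970). AT2G18420 read 1.55 and 0.79 in treated seedlings against 14.8 and 15.3 in mock (-1.70 ± 0.32, adjusted p = 0.00970), and AT1G20150 2.44 and 11.9 against 23.6 and 33.8 (-1.57 ± 0.35, adjusted p = 0.0362). Both treated arrays of each were under 15, where no detection calls were used here to say whether a transcript was measured. The call of AT2G18420 was lost when any 1 of the 4 arrays was left out, and those of AT5G65300 and AT1G20150 without either mock array, treated array A or the block. AT1G20150 also lost it with no filter on low values, under quantile normalization and without the intensity trend.

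The other 63 called probe sets, 49 higher and 14 lower, name no gene in the tables used here, and include changes as large as those above. Probe set 247925_at read 461 and 394 after 6-deoxotyphasterol and 40.1 and 38.1 in mock (log2 change 3.29, adjusted p = 9.02e-05), and 245757_at read 149 and 112 against 11.5 and 14.8 (2.89, adjusted p = 0.00440). The unnamed falls were led by 256598_at, with 76.1 and 83.4 against 473 and 530 in mock (-2.58, adjusted p = 1.92e-05), and 267305_at, with 39.4 and 39.1 against 193 and 196 (-2.17, adjusted p = 3.69e-05). At the threshold, the last probe set called was 250752_at with an adjusted p of 0.0464 and the first left out was 258395_at with 0.0503.

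The tissue markers did not pass. The 3 green tissue markers, all genes for light-harvesting proteins, had a median log2 change of -0.20 with none called, and their summed intensity was 2646 to 3596 after 6-deoxotyphasterol and 3491 to 3700 in mock. The 3 root markers had a median of -0.01 with none called, and sums of 1561 to 2269 against 1818 to 2197 in mock. For both lists array B gave the lower sum in treated and in mock seedlings, and the part of this in the results above was not tested. Seed markers and markers of handling and stress had no tested probe set.

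Set among all 13 groups, 6-deoxotyphasterol gave intermediate levels for the genes it changed. Its mean was the highest of the 13 for 1 of the 83 rises, with a median rank of 7 counted from the highest, and the lowest for 3 of the 22 falls, with a median rank of 6. Those 3 were the dim genes AT5G65300, AT2G18420 and AT1G20150. EXO, for example, ranked 8, between means of 1548 in the castasterone group and 170 in mock. AT5G01740 ranked 5, between 371 in the campestanol group and 17.7 in the brassinolide group. The choice against mock keeps a rise from ranking last and a fall from ranking first. Ranks over all probe sets tested were not computed. The doses of these groups differ, and the ranks are descriptions.

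**Figure D4:**
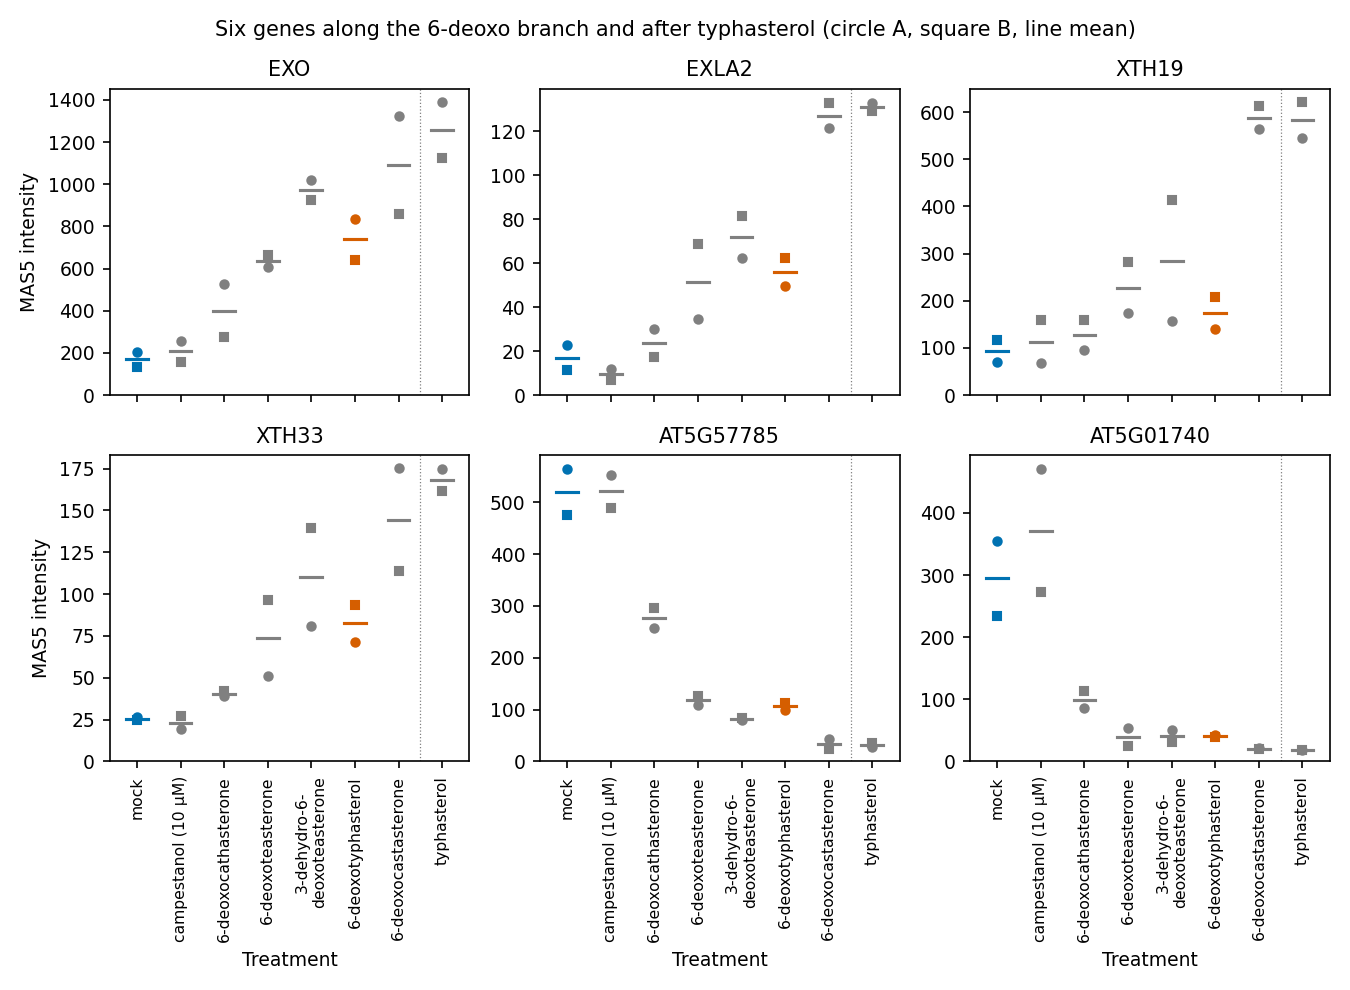
Intensity on linear axes from 0 of 6 genes in mock and along the 6-deoxo route, in the order of the route, with typhasterol set apart to the right, a circle for array A, a square for array B and a line for their mean. For AT5G57785 the points are at 564 and 475 in mock, 100 and 112 after 6-deoxotyphasterol and 43.1 and 24.5 after 6-deoxocastasterone.

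Along the 6-deoxo route, EXO read 257 and 156 with campestanol at 10 µM, and with the compounds at 1 µM it read 525 and 278 for 6-deoxocathasterone, 610 and 662 for 6-deoxoteasterone, 1019 and 923 for 3-dehydro-6-deoxoteasterone, 835 and 643 for 6-deoxotyphasterol and 1324 and 861 for 6-deoxocastasterone. AT5G57785 ran the other way, at 553 and 488 with campestanol, 257 and 295 with 6-deoxocathasterone, 108 and 127 with 6-deoxoteasterone, 80.8 and 83.4 with 3-dehydro-6-deoxoteasterone, 100 and 112 with 6-deoxotyphasterol and 43.1 and 24.5 with 6-deoxocastasterone. For both genes the 6-deoxotyphasterol arrays overlap with those of 6-deoxoteasterone and lie apart from those of 3-dehydro-6-deoxoteasterone and 6-deoxocastasterone. Arrays lay apart from these 2 compounds for 30.6% and 31.0% of all probe sets tested. In the limma fit neither gene differed from 3-dehydro-6-deoxoteasterone (adjusted p = 0.813 for EXO and 0.875 for AT5G57785). Against 6-deoxocastasterone AT5G57785 passed (adjusted p = 0.0184) and EXO did not (adjusted p = 0.495). AT5G01740 read 470 and 272 with campestanol, against 43.0 and 38.7 with 6-deoxotyphasterol. Campestanol was given at a higher dose, so its values stand here only side by side.

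The direct comparisons with other compounds were 3, all at 1 µM for 3 h. They and the comparison with mock share the 6-deoxotyphasterol arrays, and the changes against mock that chose the 105 probe sets used those same arrays.

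Against typhasterol, which differs by the C-6 ketone it carries, 6-deoxotyphasterol left XTH18 and XTH19 lower and AT5G57785 higher. Of all probe sets tested 18 were called (0.102%), 11 higher and 7 lower with 6-deoxotyphasterol (0.0625% and 0.0398%). XTH19 read 141 and 209 with 6-deoxotyphasterol and 546 and 621 with typhasterol, a log2 difference of -1.73 (95% interval -2.27 to -1.19, adjusted p = 0.00483). XTH18 read 110 and 172 against 445 and 469 with typhasterol, a difference of -1.69 (-2.32 to -1.06, adjusted p = 0.0228). For both the arrays of the 2 compounds lie well apart, as they do for all 18 called probe sets. They lay apart for 32.5% of all probe sets tested. XTH18 and XTH19 are neighbouring loci of similar sequence, and a share of signal between their probe sets was not tested.

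AT5G57785 read 100 and 112 with 6-deoxotyphasterol and 28.4 and 35.7 with typhasterol, a log2 difference of 1.59 (1.00 to 2.19, adjusted p = 0.0228), with the mock arrays higher still at 564 and 475. AT2G03750 read 188 and 176 against 64.4 and 106 with typhasterol (1.09, 0.65 to 1.54, adjusted p = 0.0444), and AT5G22580 737 and 578 against 393 and 298 (0.92, 0.55 to 1.30, adjusted p = 0.0483). AT1G30690 read 137 and 176 against 269 and 341 with typhasterol (-0.94, -1.27 to -0.62, adjusted p = 0.0124). Without the letter block no probe set was called (633 with an unadjusted p under 0.05 in limma), and each of the 6 named differences was lost without 6-deoxotyphasterol array A, without its array B and without typhasterol array A. The calls numbered 3, 3 and 4 without these arrays, and 12 without typhasterol array B. Without the intensity trend XTH19 alone of the 6 kept its call. AT2G03750 and AT5G22580 were also lost with no filter and under median centring, AT2G03750 under quantile normalization, and AT5G22580 at a pseudocount of 1 and with p-values adjusted over the 3 compound comparisons together.

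EXO, EXPA8, XTH33 and AT5G01740 did not pass against typhasterol. EXO differed by a log2 of -0.77 (-1.22 to -0.31, adjusted p = 0.321) and XTH33 by -0.997 (-1.57 to -0.43, adjusted p = 0.277). EXPA8 differed by -0.30 (-0.71 to 0.11, adjusted p = 0.895) and AT5G01740 by 0.96 (0.30 to 1.61, adjusted p = 0.460). The intervals of EXO, XTH33 and AT5G01740 lie on one side of 0 and that of EXPA8 spans it, and after adjustment these differences are neither shown nor shown to be absent.

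Against 6-deoxocastasterone, which carries a hydroxyl at C-2 in addition, 41 probe sets were called (0.233%), 14 higher and 27 lower with 6-deoxotyphasterol (0.0795% and 0.153%). XTH19 and XTH18 again read lower with 6-deoxotyphasterol, at 141 and 209 against 564 and 613 with 6-deoxocastasterone (-1.75, -2.29 to -1.21, adjusted p = 0.00538) and at 110 and 172 against 360 and 467 (-1.54, -2.17 to -0.91, adjusted p = 0.0271). AT5G57785 read 100 and 112 against 43.1 and 24.5 with 6-deoxocastasterone, a difference of 1.56 (adjusted p = 0.0184). AT5G22580 was higher by 0.92 (adjusted p = 0.0271). AT1G30690 differed by -0.81 (adjusted p = 0.0262). These genes were called in the same direction against both compounds, and 14 probe sets were called against both, out of 18 and 41. Those totals are 0.102% and 0.233% of all probe sets tested. Both comparisons use the same 6-deoxotyphasterol arrays, so the overlap is not a separate check.

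The other named differences from 6-deoxocastasterone lie in genes that, like XTH18 and XTH19, were not called against mock. For these genes, AT1G19020, AT5G39670 and AT1G26380, the 6-deoxocastasterone mean was the highest of all 13 groups. They were chosen for high values on those same 6-deoxocastasterone arrays, which favours such a rank, so the rank is a description and carries no test. With castasterone at 100 nM AT1G19020 read 65.9 and 64.4. AT1G19020 read 60.2 and 59.6 with 6-deoxotyphasterol and 178 and 239 with 6-deoxocastasterone, a log2 difference of -1.70 (-2.17 to -1.24, adjusted p = 0.00334). AT5G39670 read 23.1 and 28.9 against 82.2 and 91.1 with 6-deoxocastasterone (-1.57, adjusted p = 0.0184). AT1G26380 read 5.46 and 0.53 against 17.7 and 117, so the 6-deoxocastasterone arrays themselves lay far apart (-2.79 ± 0.58, adjusted p = 0.0435). This gene is dim, with both 6-deoxotyphasterol arrays under 15, and its difference ran from -3.92 to -1.65 over the alternatives, so its size is not well set. Its call was lost with no filter, at a pseudocount of 1, under quantile normalization and median centring and with joint adjustment over the 3 comparisons. Without the letter block 1 probe set was called, AT1G19020. Without 6-deoxotyphasterol array A there were 0 calls in limma (1362 at an unadjusted p under 0.05), and without its array B there were 3. Of the single arrays, AT1G19020 lost its call without 6-deoxotyphasterol array A only, and XTH19 without either 6-deoxotyphasterol array. AT5G57785, AT5G22580, AT1G30690 and AT1G26380 lost theirs without either 6-deoxotyphasterol array or 6-deoxocastasterone array B, and XTH18 and AT5G39670 without any 1 of the 4. Without the intensity trend XTH19 and AT1G19020 kept their calls and the other named genes lost theirs, AT5G22580 and AT1G30690 also in the fit to the 4 arrays alone, and AT5G22580 and XTH18 also with joint adjustment.

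Against 3-dehydro-6-deoxoteasterone, which has a ketone at C-3 in place of the hydroxyl, no probe set was called in limma (0%), while 1095 had an unadjusted p under 0.05 and the smallest adjusted p was 0.326. EXO differed by -0.40 (-0.86 to 0.05), EXPA8 by 0.00 (-0.41 to 0.41), AT5G57785 by 0.35 (-0.24 to 0.95) and AT5G01740 by 0.05 (-0.60 to 0.70). XTH19 read 141 and 209 with 6-deoxotyphasterol and 157 and 413 with 3-dehydro-6-deoxoteasterone, a difference of -0.56 (-1.10 to -0.02, adjusted p = 0.787). The intervals reach a log2 of -1.10 for XTH19 and 0.95 for AT5G57785, so the compounds are not shown to act alike. With p-values adjusted over the 3 comparisons together, 17, 30 and 2 probe sets were called for typhasterol, 6-deoxocastasterone and 3-dehydro-6-deoxoteasterone.

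**Figure D5:**
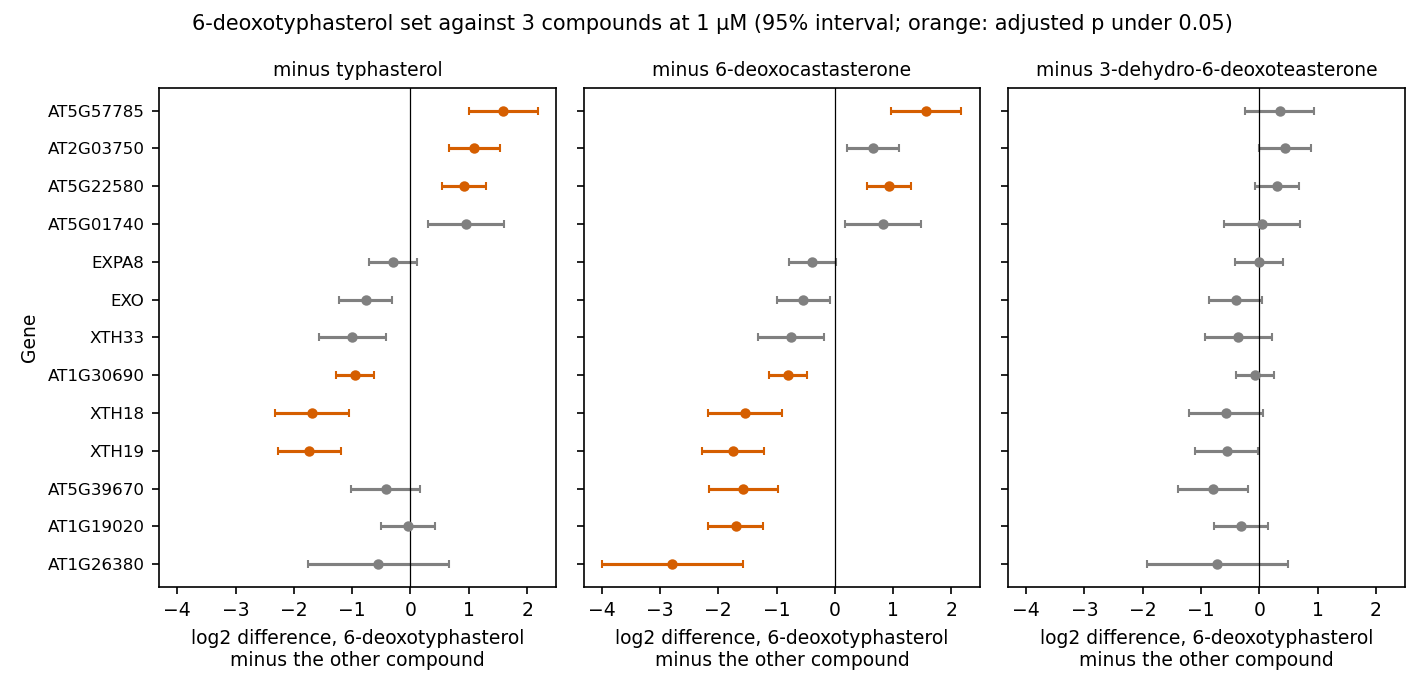
Log2 difference of 6-deoxotyphasterol over each of 3 compounds for 13 genes, with 95% intervals, in orange where the adjusted p is under 0.05. XTH18 and XTH19 lie below 0 and AT5G57785 above 0 against typhasterol and 6-deoxocastasterone, and no gene is orange against 3-dehydro-6-deoxoteasterone.

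Taking the probe sets called against mock as a whole, the 83 rises were mostly lower with 6-deoxotyphasterol than with typhasterol (77 of 83, median -0.47) and 6-deoxocastasterone (77 of 83, median -0.43), and 56 of 83 lay below 3-dehydro-6-deoxoteasterone (median -0.10). Of those, 3, 2 and 0 were called. The 22 falls were above typhasterol in 19 (median 0.65, 4 called), above 6-deoxocastasterone in 17 (median 0.43, 5 called) and above 3-dehydro-6-deoxoteasterone in 18 (median 0.14, 0 called). Over all probe sets tested, 51.1%, 55.5% and 53.6% lay below 0 in the 3 comparisons, with medians of -0.01, -0.03 and -0.02. Since the probe sets were chosen on these 6-deoxotyphasterol arrays, the counts describe them and carry no test.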

How the data were processed

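The authors deposited 1 linear intensity per probe set and array, produced by MAS5 according to the labels (per the submitters' processing notes). Its version and parameters were not given in the sources used here, and no detection calls were used. The trimmed mean (2 to 98%) of the deposited intensities lay between 99.955 and 99.968 on all 26 arrays, so no further normalization was applied.

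The table holds 22810 probe sets, of which 64 are array controls and were dropped. Testing covered the 17606 whose mean over the 26 arrays reached 10. Genes were named from the platform annotation: 13513 probe sets name 1 gene, 503 several and 8730 none, and 13436 of the first were matched to a RefSeq table (TAIR10.1), used for symbols, locus names and neighbouring loci. Neither table gives sequences, so none is shown.

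log2(intensity + 5) was fitted with limma 3.58.1 in R 4.3.3 to all 26 arrays, with 13 group coefficients, the letter B as a block and an intensity trend in eBayes (12 residual and 8.79 prior degrees of freedom). Intervals are 95%. The number of arrays, 2 per group, limits the precision. The labels do not say what the letters mark. Deviations of same-lettered arrays from their group means correlated above 0.1 in 76 of 78 pairs of groups (-0.02 to 0.48), and in 12 of 12 pairs with 6-deoxotyphasterol (0.37 with mock).

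The comparison, the compounds set beside it and the 19 gene lists were chosen with earlier results of these data known. The genes named in the text are the top 14 rises and top 14 falls (8 existed) among called probe sets naming 1 gene that moved the same way within both letters, up to 5 per direction against each other compound, the 2 largest rises and falls without a gene name, and list members as examples. Exceptions are marked in the text. The fit was tested on simulated data. Alternatives were pseudocounts of 1 and 20, no filter or a mean of at least 30, quantile normalization, median centring, no trend, no block, the 4 compared arrays alone, each array left out, and adjustment over the 3 compound comparisons together.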

Additional observations from a re-analysis of the deposited data

How the results depend on the processing

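Precision is limited by 2 arrays per group, and the counts moved with the replicate block for the letters, the intensity trend, the arrays in the fit and single arrays. Without the replicate block the calls numbered 34 against mock (105 with it), 0 against typhasterol (18), 1 against 6-deoxocastasterone (41) and 0 against 3-dehydro-6-deoxoteasterone (0), with 757, 633, 854 and 623 probe sets at an unadjusted limma p under 0.05. Without the intensity trend they numbered 63, 7, 11 and 0. Fits to the 4 compared arrays alone gave 610, 420, 44 and 6, with 1 residual degree of freedom, so their p-values rest on a spread pooled over probe sets. Leaving out any 1 of the 4 arrays gave 27 to 60 calls against mock, 3 to 12 against typhasterol and 0 to 47 against 6-deoxocastasterone, the 0 being without 6-deoxotyphasterol array A (1362 at an unadjusted p under 0.05). Against 3-dehydro-6-deoxoteasterone adjustment over the 3 comparisons together gave 2 calls, and each other alternative besides the 4-array fit gave 0. Where a group kept a single array, that array was assumed to vary like the others. Other pseudocounts, filters and scalings kept each total within 1.5 times, but ended single calls. Among the named genes these were EXLA1 and AT1G20150 against mock, AT2G03750 and AT5G22580 against typhasterol, and AT1G26380 against 6-deoxocastasterone. The dim genes AT5G65300, AT2G18420 and AT1G20150 were also not called against mock with a mean of at least 30. Of the further rises against mock, AOP1, AT5G41400, AT3G19680, AT3G06070, AT1G30690, AT2G35880 and AT2G41330 lost their calls under at least 1 of these settings. Of the 22 genes named against mock, 9 kept their call without the block, 8 whichever array was left out, and 6 under every alternative run: EXO, EXPA8, AT4G27280, AT2G47440, AT5G01740 and AT5G57785. None of the 6 and 7 named differences from typhasterol and 6-deoxocastasterone did. No named change turned its direction. Apart from the leave-outs, the trend, the block and the 4-array fit, the cause of a lost call was not tested. Median centring moved the median of all probe sets against mock to -0.05. No detection calls were used, so whether the dim genes AT5G65300, AT2G18420, AT1G20150 and AT1G26380 were above background was not tested.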
